A study of Mus musculus with 6 samples.

Results

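The genes described here make and load the peptides that MHC class I molecules show at the cell surface: 3 catalytic subunits of the immunoproteasome (Psmb8, Psmb9 and Psmb10), the subunits of its activator PA28 (Psme1 and Psme2), the peptide transporter (Tap1 and Tap2), the loading factor tapasin (Tapbp), the trimming enzyme Erap1 and the class I transactivator Nlrc5. They were taken by gene name from the tables of RNA-seq values, which hold 55298 genes, and all 10 were found. The cells were cancer-associated fibroblasts sorted from orthotopic lung tumours that grew in C57BL/6 mice of wt genotype over 8 weeks old. The 3 apCAFs libraries (1, 2 and 3) came from cells with surface MHC class II, and the 3 nonapCAFs libraries (4, 5 and 6) from cells without it. Both sorts took FSC-A-high cells that were negative for CD45, CD31, EPCAM and mCherry and positive for PDPL (as the label spells it) and PDGFRa. Tumours were pooled and the work was done in 3 independent experiments, so a library does not stand for 1 mouse, and the labels do not say which libraries share an experiment.

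The proteasome cuts cytosolic proteins into peptides. Under interferon, and constantly in many immune cells, its standard catalytic subunits are replaced by the immunoproteasome subunits, whose products more often end in residues that class I molecules bind. TAP carries these peptides into the endoplasmic reticulum, where Erap1 shortens them and tapasin holds the empty class I molecule beside the transporter. MHC class II, the protein that defined the sort, is loaded by another route with peptides made in endosomes, so none of the genes described here belongs to the class II machinery itself.

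Each value is a gene's read count after the authors scaled the libraries to each other and rounded it, called a normalized count below; sequencing depth is unknown. A gene was called where limma, fitted to log2(value + 1) over 36443 genes with a two-sided test, gave a Benjamini-Hochberg adjusted p under 0.05. Fold changes are apCAFs over nonapCAFs on that scale, where low values are understated. Summed normalized counts ran from 77960347 to 93330791 per library. Over the 17829 genes with a mean of at least 100, apCAFs 1 and 2 differed by an SD of 0.238 in log2 ratio and nonapCAFs 4 and 5 by 0.246, while apCAFs 3 and nonapCAFs 6 stood further from their own groups (0.479 to 0.708).

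The summed level of the 7 fibroblast markers was high throughout, at 2792063 to 4217767 in apCAFs and 1190772 to 1425779 in nonapCAFs, most of it from collagen genes. By limma, 3 of the 7 were called higher (Col1a1, Col1a2 and Pdpn). The 6 markers other than Lum were higher in every apCAFs library than in any nonapCAFs library, and all 6 passed as higher in the authors' deposited table. Among them was Pdgfra at 2.86-fold (limma adjusted p = 0.0855). Lum was lower in every apCAFs library (log2 -0.89, limma adjusted p = 0.0952) and passed as lower in the authors' deposited table. Ptprc, which encodes CD45, had 24, 22 and 65 in apCAFs against 2, 29 and 34 in nonapCAFs. The 7 leukocyte markers, of which 1 (Cd53) was called higher, summed to 579 to 1067 in apCAFs and 228 to 500 in nonapCAFs. The 5 dendritic cell markers (1 called higher, Batf3) summed to 1515 to 2658 in apCAFs and 1136 to 1172 in nonapCAFs, but went both ways. Itgax had 267, 303 and 177 in apCAFs against 526, 556 and 553 in nonapCAFs and passed as lower in the authors' deposited table, where Zbtb46 passed as higher; Flt3 was also lower in every apCAFs library. The 5 macrophage markers summed to 1591 to 2938 in apCAFs and 951 to 1135 in nonapCAFs, and the 6 B and T cell markers to 34 to 116 in apCAFs and 26 to 44 in nonapCAFs. The 4 endothelial markers summed to 104 to 443 in apCAFs and 118 to 279 in nonapCAFs. No gene of these 3 lists was called by limma; 1 macrophage and 2 B and T cell markers had an unadjusted p under 0.05, and the macrophage marker Csf1r passed in the authors' deposited table. All 5 mesothelial markers were called higher, with sums of 29098 to 38402 in apCAFs and 1600 to 2618 in nonapCAFs. The 6 alveolar type II markers, of which none was called by limma (0 at an unadjusted p under 0.05) and 5 were higher in the authors' deposited table, summed to 86280 and 70830 in apCAFs 1 and 2 but to 1154 in apCAFs 3, against 1738 to 2277 in nonapCAFs. No listed marker was at 0 in every library, and the part these cells had in the results below was not tested.

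**Figure D1:**
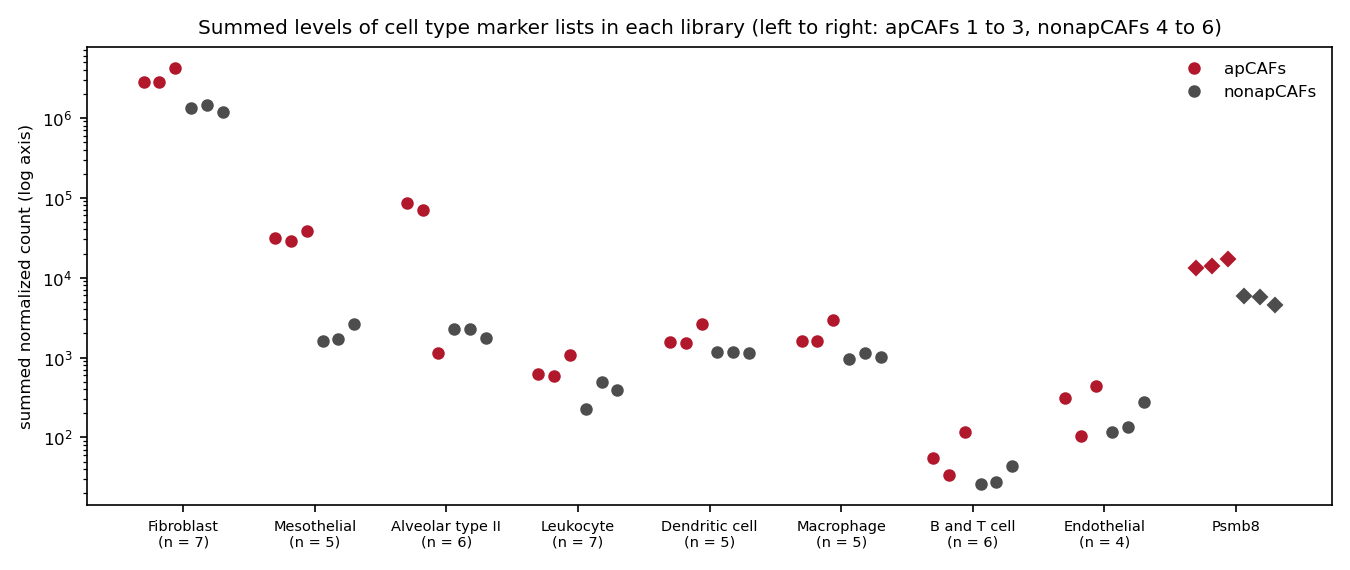
Summed normalized counts of each cell type marker list (log axis) per library, apCAFs 1 to 3 to the left of nonapCAFs 4 to 6, with Psmb8 alone at the right. Mesothelial markers sum to 29098 or more in every apCAFs library and to 2618 or less in every nonapCAFs library, and alveolar type II markers are high in apCAFs 1 and 2 alone.

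Of the 10 genes, 3 were called higher in apCAFs (Psmb8, Tap1 and Psmb9) and none lower, by limma with Benjamini-Hochberg adjustment. In bulk libraries such as these, more RNA per cell and more cells that hold a transcript cannot be told apart. Over all genes tested, 3.91% were called in the first direction and 0.486% in the second. Before adjustment, 5 of the 10 had a p under 0.05 and were higher, against 13.1% of all genes, and 0 were lower. The median log2 fold change of the 10 was 0.53, with a range of 0.24 to 1.45, and that of all genes tested was -0.04. For 9 of the 10, every apCAFs library lay above every nonapCAFs library, which held for 17.1% of all genes. Genes at these levels are called and separated more often: among genes with a mean of at least 100, 5.87% were called higher and 25.5% were separated in this direction. When the 17829 such genes alone were fitted, 8 of the 10 and 3787 of the 17829 were higher at an unadjusted p under 0.05 (limma). The separation was counted on the authors' scaling, where every apCAFs sum (89881929 to 93330791) exceeded every nonapCAFs sum (77960347 to 84259822). After scaling to library totals, log2 fold changes fell to between 0.09 (Erap1) and 1.30 (Psmb8), and the separation was not counted again. In the authors' deposited table, with DESeq2 adjusted p-values, 7 of the 10 were higher at 0.05 and 0 lower, against 20.6% higher and 9.77% lower among the genes there with an adjusted p. Beside the 3 genes called here, that table passed Tap2 (adjusted p = 1.34e-10), Psmb10 (0.00012), Tapbp (0.0219) and Psme1 (0.0254), by DESeq2 in the authors' deposited table.

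**Figure D2:**
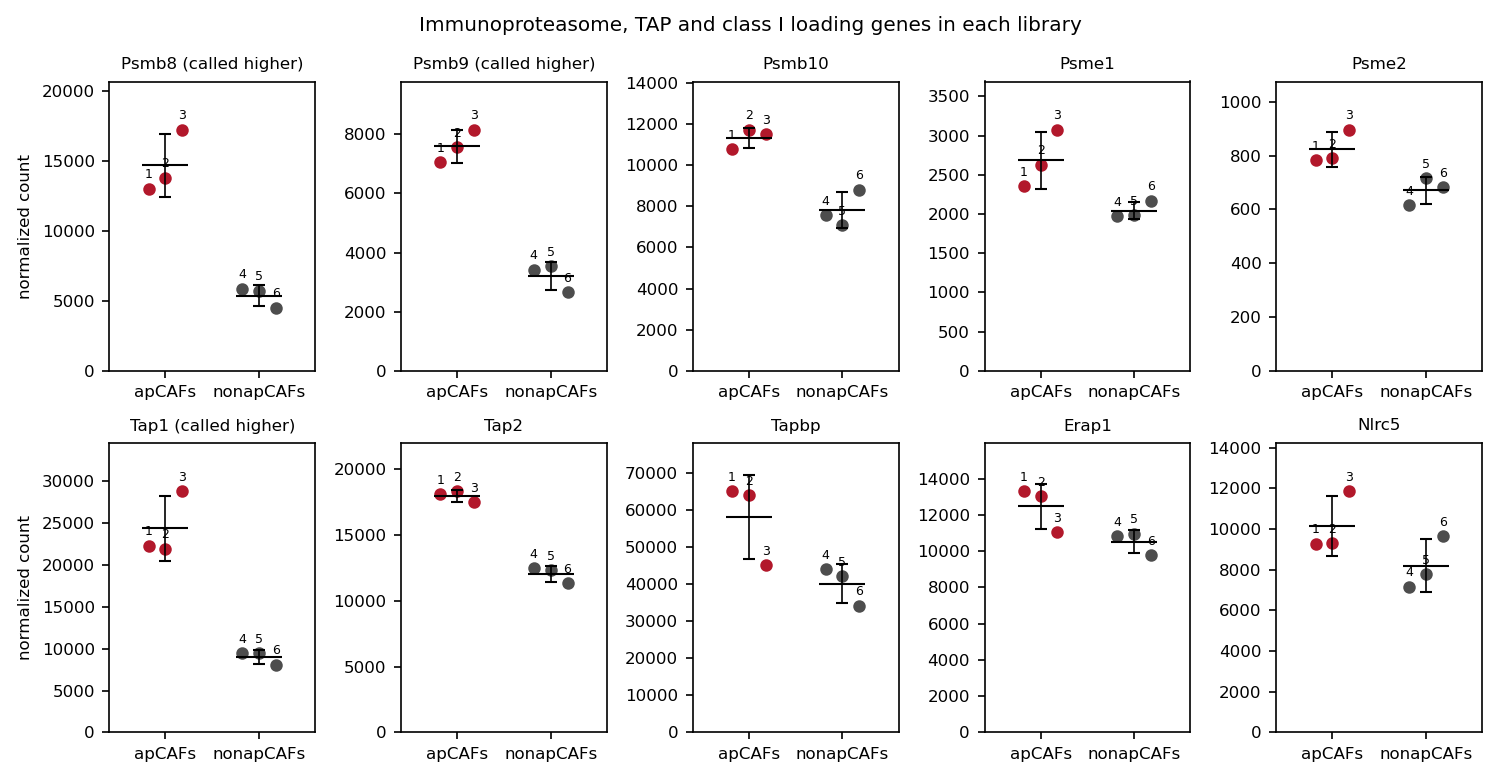
Normalized counts of the 10 genes in each library, apCAFs to the left of nonapCAFs in each panel, with the mean and SD. By fold change, Psmb8, Psmb9 and Tap1 lie furthest apart between the groups, and the groups of Nlrc5 overlap.

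Psmb8 encodes the immunoproteasome subunit with chymotrypsin-like activity (LMP7), and lies on chromosome 17 (34197721 to 34201454, mm10, plus strand, ENSMUSG00000024338). It had 13034, 13807 and 17253 normalized counts in apCAFs 1, 2 and 3, against 5885, 5739 and 4509 in nonapCAFs 4, 5 and 6. The lowest apCAFs library stood above the highest nonapCAFs library by more than the spread within either group. The means were 14698 ± 2246 in apCAFs and 5378 ± 755.8 in nonapCAFs (SD, n = 3 each). Psmb8 was thus 2.73-fold higher in apCAFs, with a log2 value of 1.45 and an SE of 0.19 (adjusted p = 0.0247 in limma).

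Psmb9 encodes LMP2, which takes the place of the caspase-like subunit, and lies on the same chromosome (34181987 to 34187764, minus strand, ENSMUSG00000096727). Its values were 7054, 7568 and 8154 in apCAFs 1, 2 and 3, against 3419, 3542 and 2667 in nonapCAFs 4, 5 and 6. As for Psmb8, the groups did not overlap, apCAFs 3 was the highest library and nonapCAFs 6 the lowest. Psmb9 was 2.38-fold higher in apCAFs, 1.25 in log2 with an SE of 0.17 (adjusted p = 0.0261 in limma).

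Tap1 encodes the first chain of the peptide transporter (chromosome 17, 34187553 to 34197225, plus strand, ENSMUSG00000037321). It had 22319, 21959 and 28808 in apCAFs 1, 2 and 3, and 9479, 9474 and 8096 in nonapCAFs 4, 5 and 6. Again no nonapCAFs library came near the apCAFs, and apCAFs 3 was highest. Means of 24362 ± 3855 in apCAFs and 9016 ± 797 in nonapCAFs (SD, n = 3 each) differed 2.69-fold, which is 1.43 in log2 with an SE of 0.18 (adjusted p = 0.0212 in limma). In all 3 called genes the highest level was in apCAFs 3. That library also had the highest sums of fibroblast (4217767), mesothelial (38402), leukocyte (1067) and dendritic cell (2658) markers. The same held for macrophage (2938), B and T cell (116) and endothelial (443) markers, while the alveolar type II sum of apCAFs 3 was the lowest (1154).

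The 3 calls were sensitive to leaving out 1 library. Without apCAFs 3 they held (limma adjusted p = 0.0203 to 0.0454). That fit left the close pair apCAFs 1 and 2 as the group, and calls over all genes rose from 1425 to 1601 higher. With any other library left out none of the 3 passed, at log2 fold changes of 1.12 to 1.53 (limma adjusted p = 0.0536 to 0.0915). Without any 1 of those other libraries, the genes called higher over all genes also fell, from 1425 to between 254 and 620. Each of the 6 possible pairings of apCAFs with nonapCAFs libraries was also entered as a block (limma adjusted p = 0.0935 to 0.153). Such a block cannot change the sizes, which stayed at 1.25 to 1.45. After the close pair of each group (apCAFs 1 and 2, nonapCAFs 4 and 5) was reduced to its mean, the adjusted p was 0.224 to 0.239 in limma. In these fits 0 of all 36443 genes were called, so the missing calls are not particular to the 3. With every gene of the files entered in the fit, including those at 0 throughout, Psmb8 (limma adjusted p = 0.0562) and Psmb9 (limma adjusted p = 0.0533) also missed the threshold.

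These 3 called genes lie side by side in the class II region of the mouse MHC. Tap1 and Psmb9 are read in opposite directions from neighbouring starts, 34187556 for Tap1 and 34187330 for Psmb9 in RefSeq (GRCm38.p6), 226 bp apart. The stretch between these RefSeq starts is shown because it lies upstream of both, in a pair of genes that were both called. It also lies inside the Psmb9 gene span given above, which extends past the RefSeq start of Psmb9. It is chr17:34187331-34187555 of GRCm38.p6, given 5′ to 3′ on the plus strand, from Psmb9 towards Tap1, with a GC box (CCGCCC, which reads GGGCGG on the other strand) in capitals.
Tap1-Psmb9 interval: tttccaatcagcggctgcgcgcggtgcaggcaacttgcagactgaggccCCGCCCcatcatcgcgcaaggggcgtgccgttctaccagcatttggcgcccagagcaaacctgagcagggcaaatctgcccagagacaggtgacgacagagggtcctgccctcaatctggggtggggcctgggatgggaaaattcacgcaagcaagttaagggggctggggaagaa
The annotated exons of Tap1 and Psmb9 share 212 bases, which is 3.87% of the Tap1 exon length and 5.79% of that of Psmb9. The strand setting of the authors' counting is not given in the sources used here, so reads from this stretch cannot be told apart.

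The RefSeq start of Psmb8 is at 34198195, downstream of Tap1 and inside the Psmb8 gene span given above, as are the bases shown. The bases just before it are shown because Psmb8 was called and they hold a GAS element, a motif of interferon-responsive promoters. They are chr17:34198045-34198194 of GRCm38.p6 on the plus strand, with the match to TTCNNNGAA in capitals.
Psmb8 promoter: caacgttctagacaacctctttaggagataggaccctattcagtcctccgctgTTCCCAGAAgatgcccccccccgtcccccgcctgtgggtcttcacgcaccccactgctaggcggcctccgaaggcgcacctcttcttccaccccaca

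Other genes of this stretch were followed that lie at least in part within 150 kb of the Tap1 start, among those with a mean of at least 100. Tap2, which begins 16.0 kb beyond the Tap1 start, was not called. On either side lie class II genes that were called higher, H2-DMa at log2 1.81, H2-DMb1 at 3.34 and H2-DMb2 at 3.72 before Psmb9, and H2-Ab1 at 5.76, H2-Aa at 6.11 and H2-Eb1 at 6.29 beyond Tap2. Class II protein chose the cells, so these are not an independent readout. Brd2, a bromodomain gene between H2-DMa and H2-DMb2, had a log2 fold change of -0.03, and Rxrb, a nuclear receptor gene, one of -0.16; neither was called. Gm20496, a non-coding gene whose exons share 498 bases with Psmb8 (14.7% of the Psmb8 exon length) and 165 with Tap2, was called higher at 1.09.

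**Figure D3:**
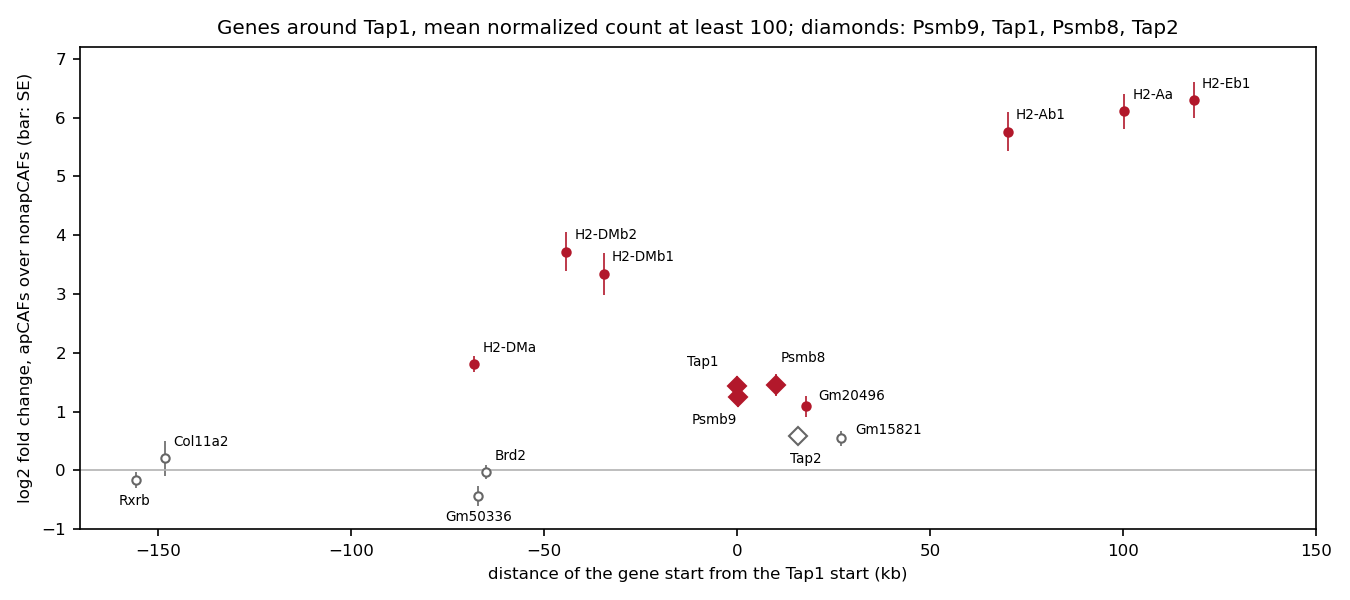
The log2 fold change of apCAFs over nonapCAFs (bar: SE) of genes near Tap1 against the distance of each gene's start from the Tap1 start in kb. Starts are those of the gene spans, not of RefSeq. Filled symbols were called by limma, and diamonds are Psmb9, Tap1, Psmb8 and Tap2. The class II genes to the left and right reach 1.81 to 6.29, Psmb9, Tap1 and Psmb8 lie at 1.25 to 1.45, and Tap2 at 0.58 was not called.

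Tap2 encodes the other chain of the transporter (chromosome 17, 34203527 to 34216321, plus strand, ENSMUSG00000024339). It had 18082, 18299 and 17445 normalized counts in apCAFs 1, 2 and 3 and 12449, 12316 and 11315 in nonapCAFs 4, 5 and 6. The groups did not overlap and the spread within each was small, but the gene did not pass (1.49-fold, log2 0.58, SE 0.13, limma adjusted p = 0.0768). It passed when genes with a mean of at least 100 alone were tested (limma adjusted p = 0.0112), and its adjusted p ranged from 0.00488 to 0.429 over the settings that kept all libraries and had no block. Its exons share 533 bases with the non-coding gene Gm15821, 14.1% of the Tap2 exon length.

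Psmb10 encodes MECL-1, the immunoproteasome subunit with trypsin-like activity, and lies outside the MHC on chromosome 8 (105935735 to 105938444, minus strand, ENSMUSG00000031897). Its values were 10762, 11712 and 11492 in apCAFs 1, 2 and 3, against 7549, 7089 and 8806 in nonapCAFs 4, 5 and 6. The groups were apart, at a smaller distance than for Psmb8 and Psmb9. The difference was 1.45-fold and was not called (log2 0.54, SE 0.15, 95% confidence interval 0.17 to 0.91, limma adjusted p = 0.13). With the same filter on the mean it passed (limma adjusted p = 0.0295).

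Each immunoproteasome subunit was next set against the standard subunit whose place it takes, as a log2 ratio within each library, which does not depend on the scaling between libraries. Psmb8 over Psmb5 was 3.32, 3.54 and 4.07 in apCAFs 1, 2 and 3, against 2.22, 2.36 and 2.02 in nonapCAFs 4, 5 and 6. Psmb9 over Psmb6 was 2.10, 2.22 and 2.14 in apCAFs, against 0.998, 1.11 and 0.478 in nonapCAFs. Psmb10 over Psmb7 was 3.25, 3.50 and 3.88 in apCAFs, against 2.91, 2.91 and 3.23 in nonapCAFs. Every apCAFs library was above every nonapCAFs library in all 3 ratios, which differed 2.71-fold, 2.45-fold and 1.44-fold in that order. The two-sided exact permutation p was 0.1 for each, the smallest that 3 against 3 libraries allow. The ratios compare genes of unlike length, so only their differences between groups are read.

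None of the standard subunits was called by limma, 0 had an unadjusted p under 0.05, and 0 passed in the authors' deposited table. Psmb5, the standard chymotrypsin-like subunit, had 1308, 1189 and 1026 in apCAFs and 1260, 1116 and 1111 in nonapCAFs. Psmb6, the caspase-like one, had 1648, 1628 and 1846 in apCAFs and 1711, 1642 and 1914 in nonapCAFs. Psmb7, the trypsin-like one, had 1133, 1033 and 782 in apCAFs and 1007, 943 and 940 in nonapCAFs. The groups overlapped in all 3, and the 95% confidence interval of Psmb5 reached from -0.39 to 0.41 in log2.

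Copies of the standard subunit genes elsewhere in the genome held much of their summed signal. Gm3375, a processed pseudogene on chromosome 7, shares 65.0% of the 25-base words of Psmb5 transcripts and was listed at 5219, 5970 and 4568 in apCAFs and 6060, 5527 and 5732 in nonapCAFs, above Psmb5 itself in every library. Copies were counted as processed pseudogenes or protein-coding genes elsewhere in the genome that share at least 2% of a gene's words, which leaves out non-coding genes such as Gm6787 (2.44% of the words of Psmb7). With these copies added, the share of the sum in the named gene was 16.21% to 20.02% for Psmb5, 21.2% to 25.3% for Psmb6 and 9.84% to 14.0% for Psmb7. Against these sums the ratios of Psmb8, Psmb9 and Psmb10 differed 2.96-fold, 2.49-fold and 1.76-fold, and the groups again did not overlap. The largest part of the Psmb6 sum was Psmb6-ps2, which shares 8.27% of the words of Psmb6. For Psmb7 it was Psmb7-ps2, which shares 2.56% of the words of Psmb7, close to the limit of 2%. No such copy was found for Psmb8, Psmb9, Psmb10, Tap1, Tap2, Tapbp, Erap1 or Nlrc5, although Tapbp shares 2.12% of its words with a non-coding gene, D330050I16Rik.

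**Figure D4:**
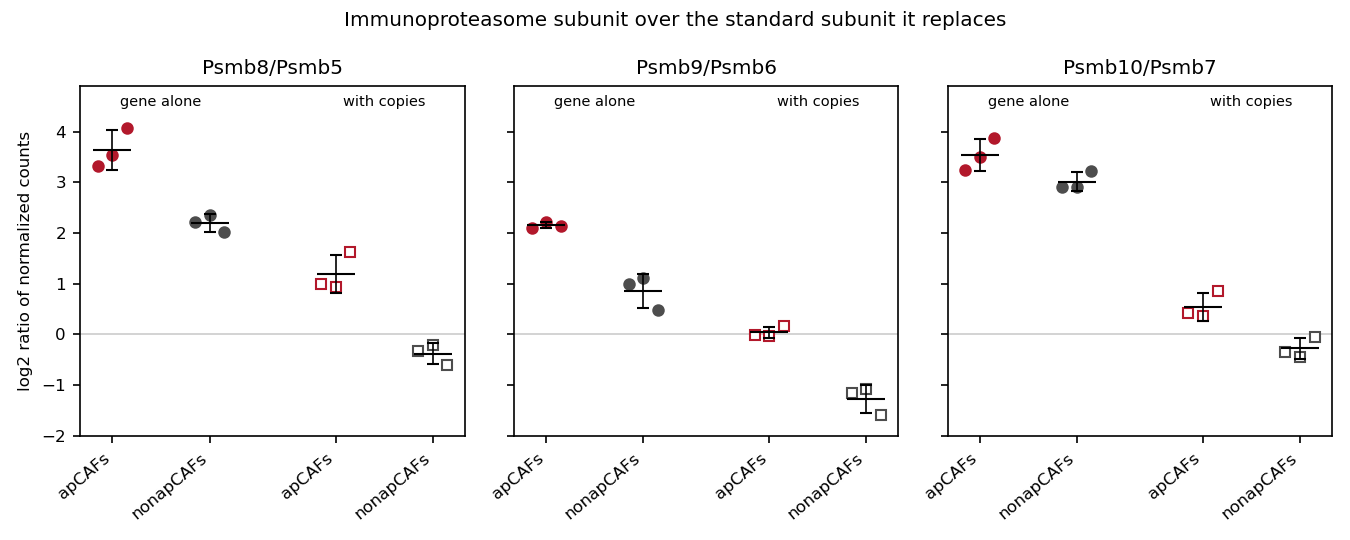
The log2 ratio of each immunoproteasome subunit to the standard subunit it replaces, per library, apCAFs to the left of nonapCAFs, with the mean and SD (n = 3); circles use the standard subunit gene alone and squares the gene plus its copies. Every apCAFs library lies above every nonapCAFs library in each panel, and with the gene alone the means differ most for Psmb8 over Psmb5 (1.44 in log2) and least for Psmb10 over Psmb7 (0.53).

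Psme1 and Psme2 encode the PA28 alpha and beta subunits, a ring that opens the proteasome for peptide release. They lie close together on chromosome 14, Psme1 at 55578123 to 55581529 (plus strand, ENSMUSG00000022216) and Psme2 at 55587441 to 55591113 (minus strand, ENSMUSG00000079197). Psme1 had 2352, 2630 and 3074 in apCAFs 1, 2 and 3 and 1975, 1986 and 2171 in nonapCAFs 4, 5 and 6. Psme2 had 782, 790 and 896 in apCAFs and 616, 715 and 682 in nonapCAFs. All apCAFs libraries were above all nonapCAFs libraries for both genes, by margins smaller than the range within either group. Neither was called, at 1.31-fold for Psme1 (limma adjusted p = 0.273) and 1.23-fold for Psme2 (limma adjusted p = 0.315).

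Psme2 shares 35.4% of its 25-base words with Psme2b on chromosome 11. Psme2b was listed at 12450, 13237 and 11915 in apCAFs and 10027, 9913 and 9607 in nonapCAFs (log2 0.35, limma adjusted p = 0.228), so Psme2 made up 5.63% to 6.97% of the sum of the gene and its copies. Psme1 made up 14.5% to 19.1% of its own sum, the rest being Gm7776 on chromosome 1 and Gm46496 on chromosome 15. With the copies added, the differences were log2 0.42 for Psme1 (limma adjusted p = 0.162) and 0.34 for Psme2 (limma adjusted p = 0.227). Values of the PA28 genes are therefore uncertain where the counting could split reads between copies.

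Tapbp encodes tapasin (chromosome 17, 33915899 to 33929292, plus strand, ENSMUSG00000024308). It had 65041, 64028 and 45071 normalized counts in apCAFs 1, 2 and 3, against 43992, 42159 and 34197 in nonapCAFs 4, 5 and 6. The lowest apCAFs library, 3, stood only just above the highest nonapCAFs library, and the lowest library of each group was the one that stood apart from its group over all genes. The 1.44-fold difference was not called (log2 0.52, SE 0.21, 95% confidence interval -0.02 to 1.06, limma adjusted p = 0.274). Its exons share 904 bases with the non-coding gene Gm19412, 24.9% of the Tapbp exon length.

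Erap1, the aminopeptidase of the endoplasmic reticulum, lies on chromosome 13 (74639568 to 74693201, plus strand, ENSMUSG00000021583) and had 13298, 13027 and 11046 in apCAFs 1, 2 and 3, against 10808, 10967 and 9779 in nonapCAFs 4, 5 and 6. As for Tapbp, apCAFs 3 and nonapCAFs 6 were the lowest of their groups. The 1.18-fold difference was the smallest of the 10 and was not called (log2 0.24, SE 0.15, limma adjusted p = 0.411). Its exons share 834 bases with Cast, 11.5% of the Erap1 exon length.

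Nlrc5 encodes a transactivator of class I genes (chromosome 8, 94434356 to 94527272, plus strand, ENSMUSG00000074151). It had 9277, 9312 and 11858 in apCAFs 1, 2 and 3, against 7154, 7782 and 9643 in nonapCAFs 4, 5 and 6. Here nonapCAFs 6 exceeded apCAFs 1 and 2, so the groups overlapped, and the highest library of each group was again the one that stood apart. The difference was 1.24-fold and was not called (log2 0.31, SE 0.19, 95% confidence interval -0.17 to 0.80, limma adjusted p = 0.418).

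Levels between genes were compared per kb of exon length. Tapbp was highest in both groups, at 16000 ± 3101 normalized counts per kb in apCAFs and 11060 ± 1435 in nonapCAFs (SD, n = 3 each). Psmb10 followed, at 6640 ± 291.7 in apCAFs and 4583 ± 521.3 in nonapCAFs. In apCAFs, Tap2 had 4745 ± 117.4 per kb, and Tap1 at 4449 ± 703.9 and Psmb8 at 4347 ± 664.4 had libraries on both sides of that mean. In nonapCAFs, Tap2 had 3181 ± 164 per kb, apart from Tap1 at 1647 ± 145.6 and Psmb8 at 1591 ± 223.5. Psme2 was lowest in both groups, at 466.4 ± 36.1 in apCAFs and 380.4 ± 28.6 in nonapCAFs, with the limit on its copies given above.

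RefSeq promoter windows, from 250 bases before to 50 after the start (GRCm38.p6), were matched for 8 of the 10 genes and searched on both strands. The IRF element (GAAA, any 2 bases, GAAA), bound by interferon regulatory factors, was in 2 of the 8 (Erap1 and Psme1) and in 3.44% of all 32851 windows. The GAS element TTCNNNGAA was in 1 of the 8 (Psmb8) and in 8.30% of all windows. The GC box GGGCGG was in 6 of the 8 and in 35.7% of all windows. The windows of Tap1 and Psmb9 overlap and hold the same box, so this site counted for both genes. The NF-kB motif was in 0 of the 8 and in 8.46% of all windows. These matches are letters in a window and not sites of binding. The bases around the starts of the pair with the IRF element are shown because, of the 8 genes, these alone had the IRF element in a window, although neither gene was called; the IRF element and, for Erap1, the GC box are in capitals. Erap1 is chr13:74639773-74639872 and Psme1 is chr14:55578414-55578518 of GRCm38.p6, both on the plus strand, where the element reads TTTC, any 2 bases, TTTC. Both stretches surround RefSeq starts and lie inside the gene spans given above.
Erap1 promoter: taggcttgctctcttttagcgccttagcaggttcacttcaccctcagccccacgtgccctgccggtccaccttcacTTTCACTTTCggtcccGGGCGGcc
Psme1 promoter: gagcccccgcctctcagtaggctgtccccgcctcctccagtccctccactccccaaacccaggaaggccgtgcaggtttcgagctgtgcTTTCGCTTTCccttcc

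Of 40 other proteasome genes (standard catalytic, other core, cap, activator, inhibitor and assembly), none was called by limma. Over all genes, 3.91% were called higher and 0.486% lower, so a count of 0 lies near those shares. Only 1 of the 40 (Psma4) had an unadjusted p under 0.05 and was higher, against 13.1% of all genes, whatever their level. A log2 fold change above 0 was found for 12 of the 40, and the median was -0.07. In the authors' deposited table, 1 of the 40 was higher (Psma4) and 2 were lower (Psme3 and Psmg3) by DESeq2 at an adjusted p under 0.05. The shares among all genes there with an adjusted p were 20.6% higher and 9.77% lower. Psma4, a core subunit, had 1685, 1895 and 2085 in apCAFs and 1414, 1288 and 1464 in nonapCAFs. Psme3, the PA28 gamma activator of the nucleus, had 9353, 9659 and 7181 in apCAFs, below the 11787, 11612 and 11270 of nonapCAFs. Neither passed limma (adjusted p = 0.203 for Psma4 and 0.267 for Psme3). By smallest p, the others of each role were Psmb2 in the core, Psmd1 and Psmd11 in the cap, Psmf1, a proteasome inhibitor, and Psmg3 and Psmg2, which help assemble it; none passed.

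Among 7 other genes of class I and its loading, H2-K1 was called higher, against 3.91% of all genes, and the median log2 fold change was 0.60. On the authors' scaling, every apCAFs library lay above every nonapCAFs library for 6 of the 7, which held for 25.5% of genes with a mean of at least 100. H2-K1, a class I heavy chain, had 172206, 180347 and 243482 in apCAFs 1, 2 and 3, against 66817, 67515 and 55127 in nonapCAFs 4, 5 and 6. The distance was 3.12-fold (log2 1.64, limma adjusted p = 0.0206), and reads of class I genes may be split among near copies. The H2-K1 call held without apCAFs 3 but not without any other library, with no filter on low values, or in the fits that called no gene at all. Of the 7, 5 passed as higher in the authors' deposited table (H2-K1, B2m, Tapbpl, H2-D1 and Calr), against 20.6% of the genes there with an adjusted p. By limma, 5 were higher at an unadjusted p under 0.05, against 13.1% of all genes, whatever their level. B2m, the light chain of class I, had 167190, 179790 and 196466 in apCAFs, against 114879, 107494 and 95734 in nonapCAFs, and did not pass (limma adjusted p = 0.0578). Tapbpl encodes TAPBPR, a tapasin relative that edits peptides, and was 3614, 4065 and 3729 in apCAFs and 2395, 2350 and 2262 in nonapCAFs (limma adjusted p = 0.0517). H2-D1 was at log2 0.60 (limma adjusted p = 0.0737), and the chaperones Calr, Pdia3 and Canx were at 0.49, 0.29 and -0.03. Of 6 cytosolic peptidases, which cut peptides before TAP can carry them, none was called by limma and 0 had an unadjusted p under 0.05. Over all genes, 3.91% were called higher and 0.486% lower. Thop1 was at -0.39 and Tpp2 at -0.22, and Tpp2 alone passed in the authors' deposited table, as lower.

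Of 9 regulators, Ciita was called higher, against 3.91% of all genes. Ciita, the class II transactivator, had 2177, 2137 and 3409 in apCAFs against 269, 320 and 178 in nonapCAFs, which is not independent of the gate on class II. Its call was lost without apCAFs 2 and without nonapCAFs 4. Irf1 had 72083, 73444 and 45721 in apCAFs and 60112, 60151 and 27086 in nonapCAFs, so apCAFs 3 was below nonapCAFs 4 and 5. Irf2 was at log2 0.34, Rfx5 at 0.15, Rfxap at 0.20, Rfxank at -0.01, Nfkb1 at 0.04 and Rela at 0.02. None of these was called by limma, and Irf2 alone of them passed as higher in the authors' deposited table (DESeq2 adjusted p = 0.00663). For Irf2, every apCAFs library (4049, 3811 and 4462) lay above every nonapCAFs library (3224, 3185 and 3335).

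**Figure D5:**
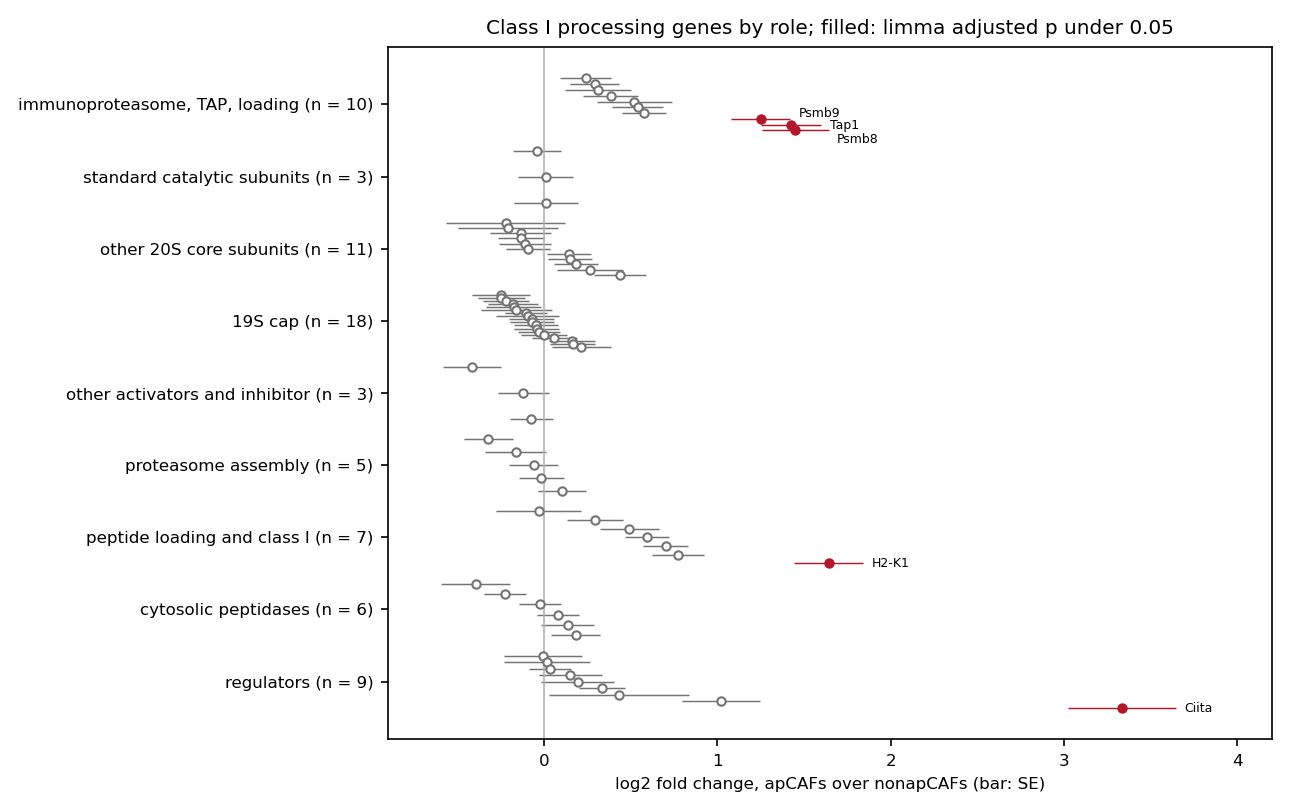
The log2 fold change of apCAFs over nonapCAFs (bar: SE) of the 10 genes and of 62 further class I pathway genes grouped by role; filled symbols were called by limma at an adjusted p under 0.05 and are named. The calls are Psmb8, Psmb9, Tap1, H2-K1 and Ciita, and the proteasome lists lie around 0.

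The mean profile of the 10 genes over the libraries, centred in log2, was 0.30, 0.34 and 0.41 in apCAFs 1, 2 and 3 and -0.33, -0.31 and -0.40 in nonapCAFs 4, 5 and 6. Among 12947 named genes outside the lists with a mean of at least 100, the 6 nearest to it by root mean square difference over the 6 libraries were Saraf (0.032), Ube2l6 (0.041), Sp110 (0.048), Nol3 (0.056), Lgi2 (0.058) and Parp9 (0.059). The 10 genes themselves lay further from this mean profile, at 0.083 (Tap2) to 0.398 (Psmb8). Tap1 was at 0.379 and Psmb9 at 0.295, so the 6 resemble the mean and not the called genes one by one. Ube2l6, an enzyme that attaches ISG15, had 7890, 8583 and 8707 in apCAFs, against 5162, 4968 and 4972 in nonapCAFs. Sp110, a nuclear body gene, had 1824, 1772 and 1875 in apCAFs, against 1070, 1094 and 1023 in nonapCAFs. Both were called (limma adjusted p = 0.0433 for Ube2l6 and 0.036 for Sp110), and the other 4 were not. They were ranked on these libraries, so the likeness is a description.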

How the data were processed

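RNA was taken from sorted fibroblasts with the Single Cell RNA Purification Kit and libraries were made with the NEB Next Ultra kit, per the labels' protocols. Trim Galore, Bowtie2, DESeq2 and the build mm10 are listed, without roles, per the submitters' processing notes. How reads were counted, with which annotation and strand setting, is not given in the sources used here. The deposited values per library are gene counts scaled between libraries and rounded by the authors, per the file headers, and are treated as a score. Reads could not be recovered, so depth is unknown and no counting interval is given. The authors' deposited table holds, per the file headers, DESeq2 p-values, a fold ratio and its log2.

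The fit was made with limma 3.58.1 (R 4.3.3) on log2(value + 1) of the 36443 genes above 0 in at least 1 library (18855 were at 0), with group as the only term. edgeR was not used, since the values were not raw counts. On simulated data the fit recovered the sizes of the changes made, but called more unchanged genes than the adjusted threshold allows. Of the identifiers, 55117 of 55298 were in GENCODE M21. Named genes were the 10 members, the called genes of each list (or the 2 of smallest p), all standard subunits and regulators (1 regulator is not reported here), and the 6 genes of nearest profile; genes at the Tap1 locus, copies and genes named from the authors' table were chosen after values were seen. The members, lists and rules were chosen with earlier results of these data known. Replicates are libraries of pooled tumours, so p-values measure the spread between these libraries.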

Additional observations from a re-analysis of the deposited data

How the results depend on the processing

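Over 21 alternatives, the direction of each of the 10 genes did not reverse. The 6 block pairings, the changes of filter on low values and the variance trend leave each log2 fold change as it was. Those settings could therefore not reverse a direction, and summing copies could change Psme1 and Psme2 alone. The count called higher was 3 with library totals, quantile or median-centred values, 4 with a pseudocount of 10, 5 when genes with a mean of at least 100 alone were tested, 5 with a variance trend and robust estimation, and 2 with no filter (Tap1 and Tap2). Counts over all genes moved too: 1425 were called higher as reported, 2309 with the pseudocount, 2318 of 17829 with the mean filter, 3097 with the variance trend and 350 with no filter. Without 1 library it ran from 0 to 3, being 3 only without apCAFs 3, and over all genes from 254 to 1601. It was 0 with the close pairs averaged, where 3 genes had an unadjusted p under 0.05, and 0 in each of the 6 replicate block pairings, where 4 to 6 did; these fits called 0 of all 36443 genes. Among the 62 further pathway genes the count of 2 became 6 with a pseudocount of 10, 6 with the mean filter, 7 with the variance trend, 3 with no filter, 0 with close pairs averaged, 0 under each block and 0 to 2 without 1 library. The cause of these shifts was not tested. The median log2 fold change of all genes, -0.04 as reported, was -0.18 with library totals, -0.19 with quantile values and -0.14 with median centring. Summing copies, an alternative chosen after seeing the data, left 3 and 2 calls. Limits: 3 libraries a group, unknown depth, unknown pairing, exact permutation p no smaller than 0.1.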
